A study of Drosophila melanogaster with 9 samples.

Results

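Hemocytes are the circulating blood cells of insects, and those of Drosophila melanogaster were compared here between larvae carrying the T315I form of the human fusion kinase BCR-ABL and larvae carrying the p210 form. The comparison rests on 6 of the 9 libraries of the series, 3 labelled UAS-BCR-ABLT315I and 3 labelled UAS-BCR-ABLP210. The remaining 3 libraries, of W1118 control larvae, did not enter the fit and are given only as a description. Every library came from third-instar larvae kept at 25 °C for the experiment, with 300 larvae bled per library, and the labels call the 3 libraries of a group biological replicates. The driver of the UAS transgenes and the cells in which it acts are not given in the labels. Counts of human BCR-ABL were not analysed here, so neither the level of the transgenes nor the substitution itself was checked in these libraries.

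BCR-ABL joins part of BCR to the Abl tyrosine kinase, and the unregulated kinase drives chronic myeloid leukaemia. T315I replaces a threonine of the kinase domain by isoleucine and blocks the binding of imatinib. Larval hemocytes are mostly plasmatocytes, which engulf debris and microbes. Crystal cells carry out melanization, and lamellocytes, flat adhesive cells that encapsulate parasites, appear mainly under challenge. JAK/STAT, JNK and Ras are among the pathways through which hemocyte number and lamellocyte formation can be altered in this animal. Fly Abl acts on the actin cytoskeleton through its partners.

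The table held 13.9, 14.6 and 15.7 M counts for the T315I libraries, 18.2, 14.9 and 14.5 M for p210 and 5.40, 8.24 and 9.84 M for the control. Levels are given in CPM, the count of a gene per 1 M counts of its library after scaling, so that 3 counts stand for 0.164 to 0.214 CPM in the 6 libraries compared. The table lists 17874 genes, of which 4712 had no count in any of these 6 and 9256 had enough for the test. Markers of hemocytes were abundant in both groups. Hml, a clotting protein gene, stood at 11356, 10789 and 15647 CPM in T315I libraries, against 8509, 13654 and 15387 CPM in p210 libraries, and the phagocytosis receptor gene eater at 1149, 1089.7 and 1128 CPM in T315I, against 1230.3, 907 and 1113 CPM in p210. Some markers whose span is wholly shared with a gene on the same or the opposite strand, among them PPO1, atilla and NimC4, were listed at 0 in all 9 libraries, and their 0 is not read as absence. The first principal component of the 6 libraries held 42.4% of the variance and separated the groups, with scores of 27.8, 12.04 and 19.2 in T315I and -17.4, -33.9 and -7.67 in p210. The p210 libraries were the more spread group, with a biological coefficient of variation of 0.128 in T315I and 0.195 in p210. Genes of cytosolic ribosomal proteins held 9.94, 9.52 and 9.38% of counts in T315I, and 12.1, 9.49 and 8.15% in p210. Genes of ribosomal RNA held 0.0288, 0.0451 and 0.0386% of counts in T315I, and 0.0224, 0.0308 and 0.131% in p210.

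The comparison asked how hemocyte transcripts differ between larvae carrying the T315I form and larvae carrying the p210 form. The substitution cannot be told apart here from other differences between the larvae of the groups, such as the level of the transgene. Few genes separated the groups beyond the spread between libraries. The antimicrobial peptide gene DptA, the immunoglobulin cell surface gene dpr4, CG10407 and the antisense RNA asRNA:CR45600 fell in T315I, and the kinesin gene Klp59D and CG42404 rose. Transcripts of the blood cell types, of JAK/STAT signalling, of Abl partners and of cell division mostly had differences whose 95% interval lay within a 2-fold change in either direction. The same was so for 74.2% of all genes. Of the genes on the lists described here, DptA alone passed the test.

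In the quasi-likelihood test of edgeR (p-values adjusted by Benjamini and Hochberg), 6 of 9256 genes (0.0648%) had an adjusted p under 0.05, 2 higher (0.0216%) and 4 lower (0.0432%) in T315I, each with at least a 2-fold change. An unadjusted p under 0.05 was reached by 1123 genes (12.1%), of which 866 were higher (9.36%) and 257 lower (2.78%). Groups without overlap were found in 1553 genes (16.8%), with every T315I library above every p210 library in 906 (9.79%) and below in 647 (6.99%). DESeq2 called 304 genes (3.28%), 251 higher and 53 lower, among them all 6 that edgeR called, while limma-voom called 1 (0.0108%), CG10407. Over all genes the median log2 fold change, T315I minus p210 as in all fold changes here, was -0.03 and the median standard error 0.15. The 95% interval of the log2 fold change, each taken alone, lay within a 2-fold change either way for 6869 genes (74.2%) and within a 1.5-fold change for 5377 (58.1%). With the counts scaled by RLE the calls were 1 higher and 1 lower, by upper quartiles 1 higher and 2 lower, and scaled to the plasmatocyte markers they were 65 higher and 45 lower. The count also turned on single libraries. It was 28 without T315I replicate 1, 12 without T315I replicate 2 and 0 without T315I replicate 3, and 83 without p210 replicate 1, 5 without p210 replicate 2 and 186 without p210 replicate 3.

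**Figure D1:**
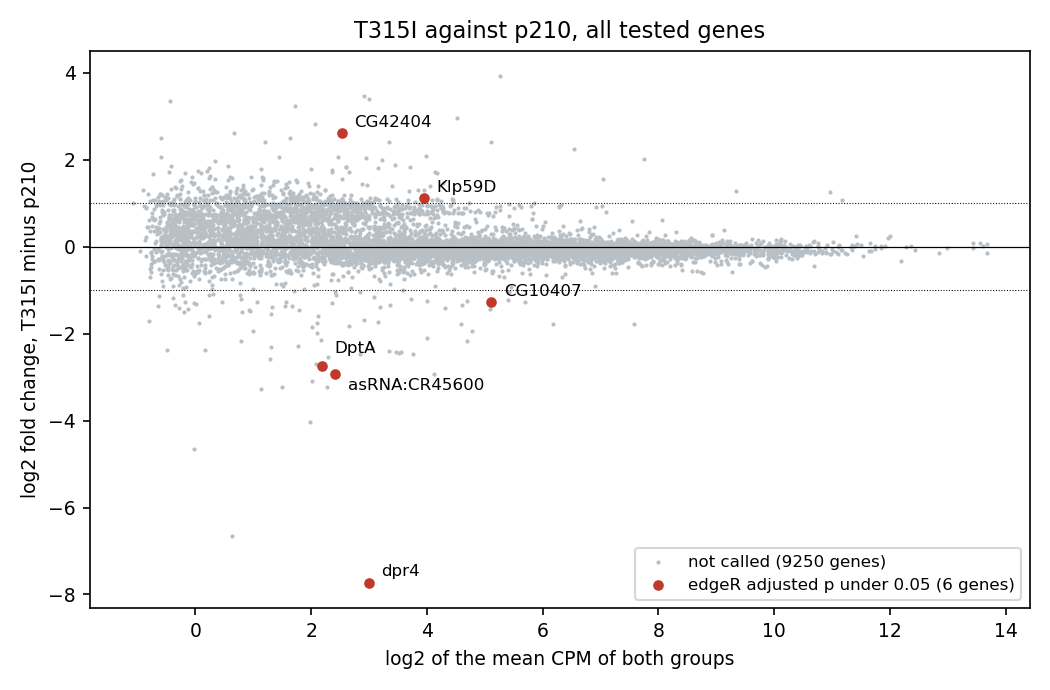
Log2 fold change, T315I minus p210, of each of the 9256 tested genes against the log2 of its mean CPM over both groups, with dotted lines at a 2-fold change. The 6 red points are the genes with an edgeR adjusted p under 0.05, and dpr4 lies lowest at -7.72.

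CG10407 (FBgn0038395), on chromosome 3R from 16044747 to 16046130 on the minus strand, had the smallest adjusted p. Its current symbol, Jhbp5, names it among the genes for hemolymph juvenile hormone binding proteins. It stood at 21.5, 21.9 and 17.2 CPM in T315I libraries, against 44.1, 53.5 and 49.6 CPM in p210 libraries. The highest T315I library was under the lowest p210 library by a wide margin, and no library of either group stood apart from its own. Means were 20.2 ± 2.59 CPM in T315I and 49.1 ± 4.71 CPM in p210 (SD, n = 3 each). The log2 fold change was -1.28 ± 0.13 (SE), with a 95% interval of -1.57 to -0.99 and an edgeR adjusted p of 0.0157, so that the gene fell 2.43-fold. The control libraries, at 12.7, 16.6 and 17.2 CPM, lay at or below the lowest T315I library. The call held in 13 of 16 alternatives, with log2 fold changes from -1.33 to -1.18, and was lost without T315I replicate 3.

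dpr4 (FBgn0053512), on chromosome 3R from 11533483 to 11542949 on the minus strand, encodes a cell surface protein of the Dpr immunoglobulin family, known from neurons, where they bind proteins of the DIP family. It had 1 count in each of the 3 T315I libraries, against 119, 374 and 218 counts in the p210 libraries. Expressed in CPM, the p210 libraries held 6.51, 25.7 and 15.5. The gene was thus at the floor of detection throughout T315I and clearly counted throughout p210, though by unequal amounts. The ratio of p210 over T315I, from 711 against 3 counts, was 227 with a counting interval of 77.4 to 1103. The fitted log2 fold change was -7.72 ± 0.77 (SE) with an edgeR adjusted p of 0.0331, and its size depends on the prior count added to so few reads. The control libraries had 2, 4 and 1 counts. The call was lost on leaving out any 1 T315I library.

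CG42404 (FBgn0259823), on chromosome 3R from 15250094 to 15257765 on the plus strand, was the larger of the 2 rises, and its name assigns it no function. It stood at 8.95, 7.32 and 13.5 CPM in T315I libraries, against 1.70, 1.92 and 1.21 CPM in p210 libraries. Every T315I library exceeded every p210 library, the highest being T315I replicate 3. The log2 fold change was 2.61 ± 0.31 (SE), with a 95% interval of 1.93 to 3.29 and an edgeR adjusted p of 0.0269, a 6.12-fold rise. The control libraries, at 3.54, 3.53 and 2.28 CPM, lay between the groups. The call held in 12 of 16 alternatives and was lost without T315I replicate 3.

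DptA (FBgn0004240), on chromosome 2R from 18865765 to 18866260 on the plus strand, encodes Diptericin A, an antimicrobial peptide induced by the IMD pathway and active against Gram-negative bacteria. It stood at 1.58, 0.684 and 1.27 CPM in T315I libraries, from 23, 10 and 20 counts, against 5.75, 6.59 and 11.6 CPM in p210 libraries, from 105, 96 and 162 counts. Even the highest T315I library was well under the lowest p210 library. The log2 fold change was -2.74 ± 0.38 (SE), with a 95% interval of -3.60 to -1.89 and an edgeR adjusted p of 0.0443, a 6.69-fold fall. In the control libraries DptA stood at 4.29, 22.2 and 14.2 CPM, above the range of p210 in 2 libraries and below it in 1. The call held in 7 of 16 alternatives and was lost without T315I replicate 2, without T315I replicate 3 and without p210 replicate 2.

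Klp59D (FBgn0034827), on chromosome 2R from 23141999 to 23144497 on the plus strand, encodes a kinesin of the family that takes microtubules apart at their ends. It stood at 23.9, 19.4 and 19.9 CPM in T315I libraries, against 9.69, 8.31 and 11.2 CPM in p210 libraries. The groups did not overlap, and libraries within each group were close to each other. The log2 fold change was 1.11 ± 0.16 (SE), with a 95% interval of 0.77 to 1.46 and an edgeR adjusted p of 0.0443, a 2.16-fold rise. In the control it stood at 36.0, 165 and 94.5 CPM, above both groups. The summed level of genes of testis, given further on, was also higher in T315I than in p210, and among the control libraries was likewise highest in replicate 2. The part of testis RNA in the level of Klp59D was not tested. The call held in 8 of 16 alternatives and was lost without T315I replicate 3 and without p210 replicate 2.

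asRNA:CR45600 (FBgn0267160), on chromosome 3R from 15136985 to 15140121 on the minus strand, is an antisense RNA gene. Its levels were 1.86, 1.30 and 0.572 CPM in T315I libraries, against 6.95, 10.4 and 10.9 CPM in p210 libraries, with 0.186, 1.59 and 1.23 CPM in the control. All T315I libraries were under all p210 libraries, and 2 of the 3 T315I libraries lay within the range of the control. The log2 fold change was -2.92 ± 0.38 (SE), with a 95% interval of -3.76 to -2.08 and an edgeR adjusted p of 0.0331, a 7.58-fold fall. Of its span, 34.8% is free of other genes on either strand. Of 1766 genes free on their own strand but wholly shared with genes of the other, 1763 were at 0 in all 9 libraries, so spans shared across strands gave almost no counts and its counts come from the free stretch, where the strand of the reads is not known. The call held in 7 of 16 alternatives and was lost without T315I replicate 2, without T315I replicate 3 and without p210 replicate 2. CG10407, CG42404 and this gene fall outside the rule by which genes were named, which left out symbols made of an annotation number, and were named after their values were seen.

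**Figure D2:**
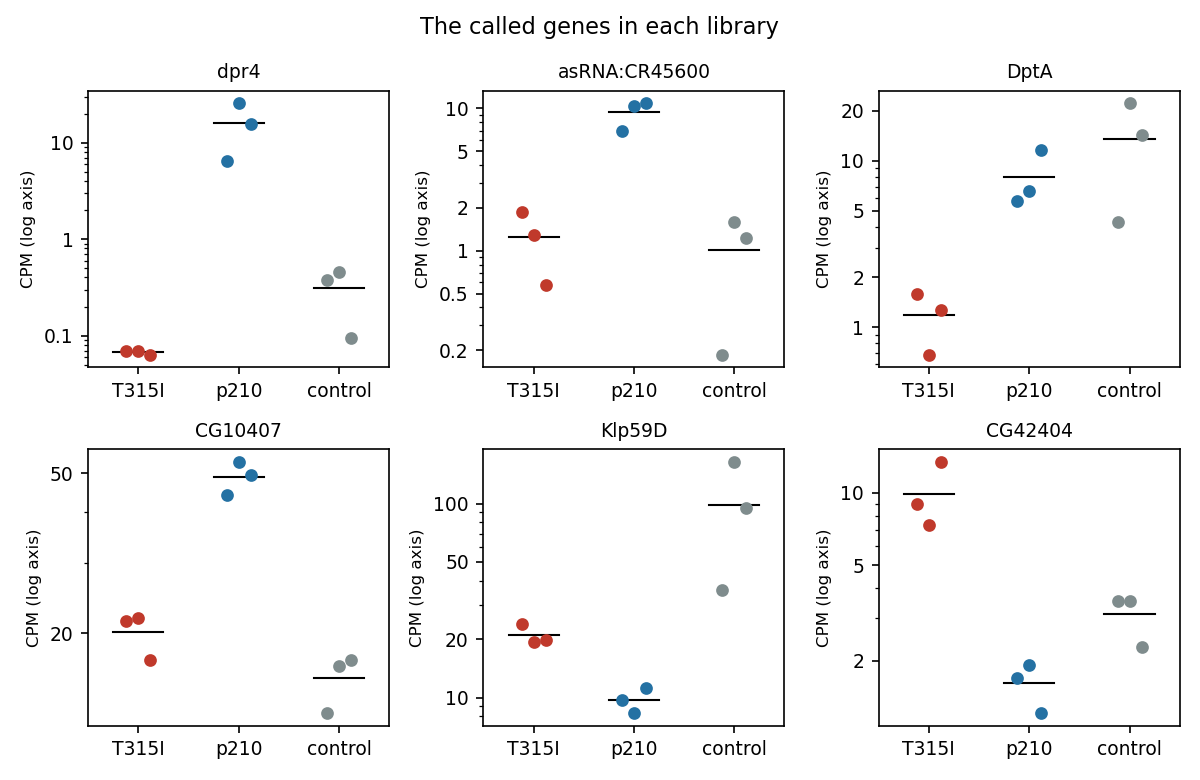
CPM on a log axis in each T315I, p210 and control library of the 6 genes with an edgeR adjusted p under 0.05, with black lines at the group means of 3 libraries. No T315I library overlaps a p210 library in any panel, and dpr4 rests on 1 count in each T315I library.

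Genes next to the called ones, within 15 kb, were read to see whether the differences stopped at a single gene, and none of the neighbours was called by edgeR. These neighbours were named after their values were seen. IKKbeta, a kinase of the IMD pathway that lies 217 bases from CG10407, stood at 102, 100.4 and 99.5 CPM in T315I libraries, against 139, 142 and 131 CPM in p210 libraries, with a log2 fold change of -0.45 ± 0.09 (SE) and an edgeR adjusted p of 0.136. The groups did not overlap, and each was tight. DptB, which encodes the second Diptericin and lies 1131 bases from DptA, stood at 4.68, 1.98 and 4.13 CPM in T315I, against 15.7, 7.62 and 11.2 CPM in p210, with -1.68 ± 0.36 (SE) and an adjusted p of 0.15. CG6912, which overlaps asRNA:CR45600, stood at 2.27, 1.85 and 0.826 CPM in T315I, against 5.04, 7.83 and 9.13 CPM in p210, with -2.15 ± 0.38 (SE) and an adjusted p of 0.118. In each of these, which were picked by their values, all T315I libraries were again the lower ones, against 6.99% of all genes. The same held for CG5013 (-0.39) near CG10407 and CG3987 (-1.27), which overlaps asRNA:CR45600. Other tested neighbours overlapped between the groups. These were pnr (-0.14), msps (-0.13) and CG10185 (-0.06) near CG10407, and CG42788 (-0.53) and GlyS (0.14) near asRNA:CR45600. Near DptA they were CG15084 (0.07), CG43071 (0.78) and sano (0.27). On the other side of DptA, CG18190 had 0.83 ± 0.31 (SE), Jheh3 1.03 ± 0.39 (SE) and CG43069 1.11 ± 0.47 (SE), opposite in sign to DptA, and the groups did not overlap in CG18190. Around Klp59D, lncRNA:CR44455, Gpdh2, CG30192 and CG13544 had all T315I libraries above all p210 libraries, against 9.79% of all genes. Their log2 fold changes lay between 0.91 and 0.99, while CG9899 had 0.40 ± 0.35 (SE) with overlap. In the control, lncRNA:CR44455 stood at 9.51, 58.3 and 42.1 CPM and CG13544 at 14.5, 60.0 and 35.5 CPM. These neighbours of Klp59D were, like it, highest in control replicate 2, and the part of testis RNA in their levels was not tested. The nearest tested neighbours of dpr4, CG14708 and CG10898, overlapped between the groups. eIF2gamma, which lies 79 bases from CG42404 encodes a translation initiation factor and shares part of its span with Su(var)3-9, had a log2 fold change of -0.11 ± 0.12 (SE) with a 95% interval of -0.36 to 0.15.

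Antimicrobial peptides are secreted by fat body and blood cells under the IMD and Toll pathways. Of 22 genes listed, 11 had too few counts for the test. Among these Mtk, Def, edin and Drsl4 were at 0 in all 9 libraries, and their 0 is not read as absence. Of the 11 tested 0 were called higher and 1, DptA, lower, against 0.0216% and 0.0432% of all genes. Estimates were below 0 for 9 of the 11, against 57.4% of all genes, with a median log2 fold change of -0.83 against -0.03 over all genes. The median was -1.31 without T315I replicate 1, -0.51 without T315I replicate 2 and -0.55 without p210 replicate 1, and -1.26 where 5 CPM was required in 3 libraries. Of the 11, 4 had an unadjusted p under 0.05, all lower, against 2.78% of all genes. DESeq2 called 2, against 3.28% of all genes. Libraries did not overlap for 2, DptA and DptB, both lower, against 6.99% of all genes. AttD, an intracellular attacin, stood at 21.4, 6.16 and 13.8 CPM in T315I libraries, against 46.5, 18.3 and 39.9 CPM in p210 libraries, with -1.34 ± 0.53 (SE) and an edgeR adjusted p of 0.396. CecC, a cecropin, stood at 85.4, 38.9 and 62.0 CPM in T315I, against 96.4, 85.0 and 119 CPM in p210, with -0.69 ± 0.28 (SE) and an adjusted p of 0.389. In both, T315I replicate 1 exceeded the lowest p210 library, and T315I replicate 2 was the lowest of the 6. Drs, which encodes the antifungal drosomycin under the Toll pathway, stood at 103, 36.9 and 57.4 CPM in T315I, against 145, 84.5 and 73.5 CPM in p210. The groups overlapped, and the log2 fold change was -0.62 ± 0.45 (SE) with a 95% interval of -1.74 to 0.50, a width within which neither a fall nor a rise can be told. AttC went the other way, at 1.31, 2.05 and 8.71 CPM in T315I, against 1.31, 2.13 and 2.21 CPM in p210, with 1.11 ± 0.70 (SE), and T315I replicate 3 stood far above the other libraries. Over all 22 genes the summed level was 255, 96.3 and 176 CPM in T315I, against 378, 235 and 307 CPM in p210, which overlap. AttD, CecC, AttC, DptB and other list members given with values here and in the following paragraphs fall partly outside the rule for named genes and were chosen after their values were seen.

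Bomanins, small secreted peptides made under the Toll pathway, and Daisho peptides had few counts. Of 16 genes listed, 4 were tested, with 0 called by edgeR and 0 by DESeq2, against 0.0648% and 3.28% of all genes. An unadjusted p under 0.05 was found for 4, all lower, against 2.78% of all genes. Since low genes were tested only where a group had enough counts, and these had more in p210, their count and direction are a description only. BomS2, the most abundant, stood at 3.51, 0.889 and 0.89 CPM in T315I, against 11.8, 3.23 and 3.78 CPM in p210, where replicate 1 was by far the highest. Its log2 fold change was -1.85 ± 0.72 (SE) with an edgeR adjusted p of 0.366, and BomS3 had -1.56 ± 0.49 (SE) with 0.207. These genes are near-identical copies in a cluster and can share reads.

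The lists of genes that control these peptides had smaller median differences. On the IMD list Rel, Fadd, PGRP-LB and PGRP-SD were at 0 in all 9 libraries, so they were not tested, and their 0 is not read as absence. Of 12 tested IMD pathway genes, 0 were called by edgeR and 1, IKKbeta, by DESeq2, against 3.28% of all genes. Estimates were below 0 for all 12, against 57.4% of all genes, with a median of -0.13, which was -0.08 without p210 replicate 1. Of the 12, 2 had an unadjusted p under 0.05, both lower, against 2.78% of all genes. For 11 of the 12 the 95% interval lay within a 2-fold change, against 74.2% of all genes. pirk, an inhibitor in the IMD pathway that the pathway itself induces, stood at 32.1, 21.4 and 32.5 CPM in T315I, against 36.1, 44.8 and 45.2 CPM in p210, with -0.55 ± 0.17 (SE) and an edgeR adjusted p of 0.201. All T315I libraries were the lower ones. The surface receptor PGRP-LC stood at 71.6, 63.8 and 69.3 CPM in T315I, against 74.5, 76.1 and 87.0 CPM in p210, with -0.21 ± 0.10 (SE) and an adjusted p of 0.436. Of 16 tested Toll pathway genes, 0 were called by edgeR and 2 by DESeq2, against 3.28% of all genes. An unadjusted p under 0.05 was found for 3, 1 higher and 2 lower, against 9.36% and 2.78% of all genes. The highest estimate was 1.11, for GNBP3, and the lowest -0.74, for SPE. The median was -0.11, or -0.02 without T315I replicate 1, -0.07 without T315I replicate 2 and -0.02 without p210 replicate 3. SPE, the protease that activates the Toll ligand, stood at 8.61, 9.24 and 9.34 CPM in T315I, against 12.9, 17.8 and 14.8 CPM in p210, again without overlap (-0.74 ± 0.16, adjusted p of 0.15). The receptor gene Tl and its ligand spz had log2 fold changes of -0.13 ± 0.13 (SE) and -0.14 ± 0.12 (SE).

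Markers of the blood cell types were next compared, where the RNA of a bled sample cannot tell fewer cells of a type apart from less RNA per cell. Plasmatocyte markers gave 14 tested genes, of which 0 were called by edgeR and 1 by DESeq2, against 3.28% of all genes. An unadjusted p under 0.05 was found for 1, against 12.1% of all genes. Their median was -0.06, and 13 of 14 had an interval within a 2-fold change, against 74.2% of all genes. Hml had a log2 fold change of 0.01 ± 0.24 (SE), with a 95% interval of -0.53 to 0.55. NimC1, a phagocytosis receptor, stood at 928, 1086 and 930.0 CPM in T315I, against 1239, 1216 and 1020.4 CPM in p210, with -0.24 ± 0.13 (SE) and an interval of -0.53 to 0.06. The groups of both genes overlapped. The gene that differed most was NimC2, also of the Nimrod receptor family, at 54.4, 68.5 and 55.6 CPM in T315I, against 42.8, 22.9 and 29.7 CPM in p210, with no overlap and a log2 fold change of 0.90 ± 0.22 (SE) with an edgeR adjusted p of 0.17. Its control level, 227, 225 and 118 CPM, was higher than in either group. The summed level of the plasmatocyte markers was 37020.5, 38299 and 47259 CPM in T315I, against 32161, 45869 and 49638 CPM in p210.

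Lamellocyte markers included talin, filamin and the integrins that build the adhesions of these cells. Of 13 tested, 0 were called by edgeR and 0 by DESeq2, against 0.0648% and 3.28% of all genes. An unadjusted p under 0.05 was found for 0, against 12.1%, and libraries without overlap for 0, against 16.8%. All 13 intervals lay within a 2-fold change, against 74.2% of all genes. The estimates ran from -0.11 for mew, an integrin alpha chain, to 0.38 for Fhos, a formin. rhea, which encodes talin, stood at 4392, 5129 and 5406 CPM in T315I, against 3856, 5812 and 5308 CPM in p210, with a 95% interval of -0.41 to 0.40. PPO3, the prophenoloxidase of lamellocytes, stood at 759.7, 894 and 731 CPM in T315I, against 991, 842 and 697 CPM in p210, with -0.09 ± 0.15 (SE). Values of the groups interleaved in both. Summed, the markers stood at 20699.5, 23955 and 22041 CPM in T315I, against 19359, 25132 and 23259 CPM in p210, and at 4120.3, 4014 and 10542 CPM in the control. Of 6 tested crystal cell markers 0 were called by edgeR and 0 by DESeq2, against 0.0648% and 3.28% of all genes. An unadjusted p under 0.05 was found for 0, against 12.1% of all genes. PPO2, the main prophenoloxidase of these cells, stood at 3823, 4929 and 4628 CPM in T315I, against 3787, 3551 and 3987 CPM in p210, with 0.24 ± 0.15 (SE) and an interval of -0.09 to 0.57.

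JAK/STAT signalling drives lamellocyte formation and hemocyte division when overactive. Of its 19 tested pathway and target genes, 0 were called by edgeR and 1, TotM, by DESeq2, against 3.28% of all genes. An unadjusted p under 0.05 was found for 1, against 12.1% of all genes, and the median was -0.01. An interval within a 2-fold change was found for 15 of 19, against 74.2% of all genes. Among the ligands, upd3 stood at 7.99, 4.31 and 3.94 CPM in T315I, against 5.04, 5.70 and 7.63 CPM in p210, with -0.18 ± 0.31 (SE). The receptor gene dome stood at 67.3, 74.4 and 79.2 CPM in T315I, against 68.6, 81.4 and 84.3 CPM in p210, with an interval of -0.33 to 0.16. The kinase gene hop, with an interval of -0.36 to 0.30, and the transcription factor gene Stat92E, with -0.18 to 0.34, were likewise bounded close to 0. The feedback inhibitor Socs36E, a common readout of the pathway, stood at 323, 288 and 333 CPM in T315I, against 306, 303 and 334 CPM in p210, with 0.00 ± 0.11 (SE) and an interval of -0.24 to 0.24. The libraries of the groups interleaved, so the data bound any difference in this gene to less than 1.5-fold either way. Among the Turandot genes, secreted stress proteins, TotA stood at 291, 241 and 250.4 CPM in T315I, against 275, 186 and 275 CPM in p210, with 0.09 ± 0.16 (SE). TotM, at 22.9, 17.2 and 28.0 CPM in T315I and 14.9, 13.5 and 13.7 CPM in p210, was the 1 member with an unadjusted p under 0.05 and without overlap, with 0.69 ± 0.17 (SE) and an edgeR adjusted p of 0.161. chinmo, a transcription factor gene acting downstream of the pathway, had the lowest estimate at -0.58 ± 0.31 (SE), with 278, 381 and 369 CPM in T315I, against 284, 614 and 643 CPM in p210. There p210 replicate 1 was within the range of T315I.

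Abl and the partners through which it acts on actin gave 27 tested genes. Of these, 0 were called by edgeR and 0 by DESeq2, against 0.0648% and 3.28% of all genes. An unadjusted p under 0.05 was found for 1, against 12.1% of all genes. Their median was -0.04, and all 27 had an interval within a 2-fold change, against 74.2% of all genes. Fly Abl itself stood at 608, 664 and 695 CPM in T315I, against 539, 755 and 968 CPM in p210, with -0.20 ± 0.19 (SE) and an interval of -0.63 to 0.22. The p210 libraries lay on either side of T315I. Rac1, a small GTPase that drives actin branching, was the 1 member with an unadjusted p under 0.05, at 119, 125 and 124 CPM in T315I, against 135, 141 and 151 CPM in p210 (-0.21 ± 0.09, edgeR adjusted p of 0.392). chic, which encodes profilin, also had all T315I libraries lower (893, 957 and 983 CPM in T315I, against 1061, 1089 and 1233 CPM in p210), with -0.26 ± 0.12 (SE). Abi and SCAR, subunits of the complex that activates actin branching, had -0.03 ± 0.11 (SE) and 0.01 ± 0.10 (SE).

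Genes of cell division were bounded closely, with estimates mostly a little below 0. Of 38 tested DNA replication genes 0 were called by edgeR and 0 by DESeq2, against 0.0648% and 3.28% of all genes. An unadjusted p under 0.05 was found for 1, against 12.1%. Estimates were below 0 for 36 of 38, against 57.4% of all genes, with a median of -0.12. All 38 intervals lay within a 2-fold change, against 74.2% of all genes. In 7 of the replication genes, and in 7 of the mitosis genes, all T315I libraries were the lower ones, against 6.99% of all genes. RnrL, the large subunit of ribonucleotide reductase, stood at 171, 181 and 174 CPM in T315I, against 182, 184 and 163 CPM in p210, and RpA-70, of the single-strand binding complex, at 251, 239.5 and 229.9 CPM in T315I, against 286, 255 and 228 CPM in p210. Neither separated the groups. Of 41 tested mitosis genes 0 were called by edgeR and 0 by DESeq2, against 0.0648% and 3.28% of all genes. An unadjusted p under 0.05 was found for 2, against 12.1%. Of the 41, 35 had an estimate below 0, against 57.4% of all genes, and the median was -0.11. CycA, the cyclin of S phase and mitotic entry, had the lowest estimate, at 152, 145 and 139 CPM in T315I, against 176, 211 and 171 CPM in p210, with -0.36 ± 0.11 (SE) and an edgeR adjusted p of 0.199. CycE, which starts S phase, had -0.09 ± 0.14 (SE) with an interval of -0.40 to 0.22. Over the scalings tried, the median ran from -0.12 to -0.09 for replication genes and from -0.11 to -0.07 for mitosis genes, beside medians of all genes from -0.03 to -0.01. Without T315I replicate 2 the median was -0.06 for both lists, and without T315I replicate 3 it was -0.07 for mitosis genes.

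Other signalling genes with a known part in hemocytes were compared next. Pvr, the receptor of the PDGF and VEGF family that keeps hemocytes alive, stood at 1058, 1252 and 1173 CPM in T315I, against 1062, 1089.6 and 1256 CPM in p210, with 0.03 ± 0.13 (SE). Of 17 tested JNK pathway and target genes 0 were called by edgeR and 0 by DESeq2, against 0.0648% and 3.28% of all genes. An unadjusted p under 0.05 was found for 0, against 12.1% of all genes. All 17 had an interval within a 2-fold change, against 74.2% of all genes. The phosphatase puc, the feedback inhibitor of JNK, stood at 136, 114.9 and 131 CPM in T315I, against 127, 137 and 187 CPM in p210, with -0.24 ± 0.15 (SE). Mmp1, a matrix protease induced by JNK, had 0.06 ± 0.15 (SE) with an interval of -0.28 to 0.40. Ras and receptor kinase genes, through which BCR-ABL is known to signal in human cells, gave 29 tested genes with 0 called by edgeR. DESeq2 called 2, against 3.28% of all genes, and 3 had an unadjusted p under 0.05, against 12.1%. An interval within a 2-fold change was found for 22 of the 29, against 74.2% of all genes. htl, a receptor of the FGF family known from mesoderm, had the highest estimate, with 0.689, 5.06 and 2.41 CPM in T315I, against 0.164, 0.549 and 0.642 CPM in p210, a log2 fold change of 2.62 ± 0.77 (SE) and an edgeR adjusted p of 0.204. Tie, a receptor tyrosine kinase gene, stood at 23.2, 29.0 and 37.6 CPM in T315I, against 35.9, 65.5 and 71.0 CPM in p210, with -0.94 ± 0.29 (SE) and an edgeR adjusted p of 0.232. edl, which encodes a regulator of the Ets factors below Ras, stood at 72.7, 63.2 and 70.2 CPM in T315I, against 81.3, 86.8 and 95.3 CPM in p210, with -0.35 ± 0.10 (SE). The libraries overlapped in Tie and did not in htl and edl. Of 19 tested PI3K, TOR and insulin pathway genes 0 were called by edgeR and 0 by DESeq2, against 0.0648% and 3.28% of all genes. An unadjusted p under 0.05 was found for 1, against 12.1%. Estimates were below 0 for 18 of the 19, against 57.4% of all genes, and 18 had an interval within a 2-fold change, against 74.2%. Their median was -0.13, and -0.07 without T315I replicate 2 and -0.05 without p210 replicate 3. S6k, the kinase below TOR, had the lowest estimate, with 152, 191 and 184 CPM in T315I, against 172, 260.4 and 251 CPM in p210 and -0.38 ± 0.16 (SE).

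**Figure D3:**
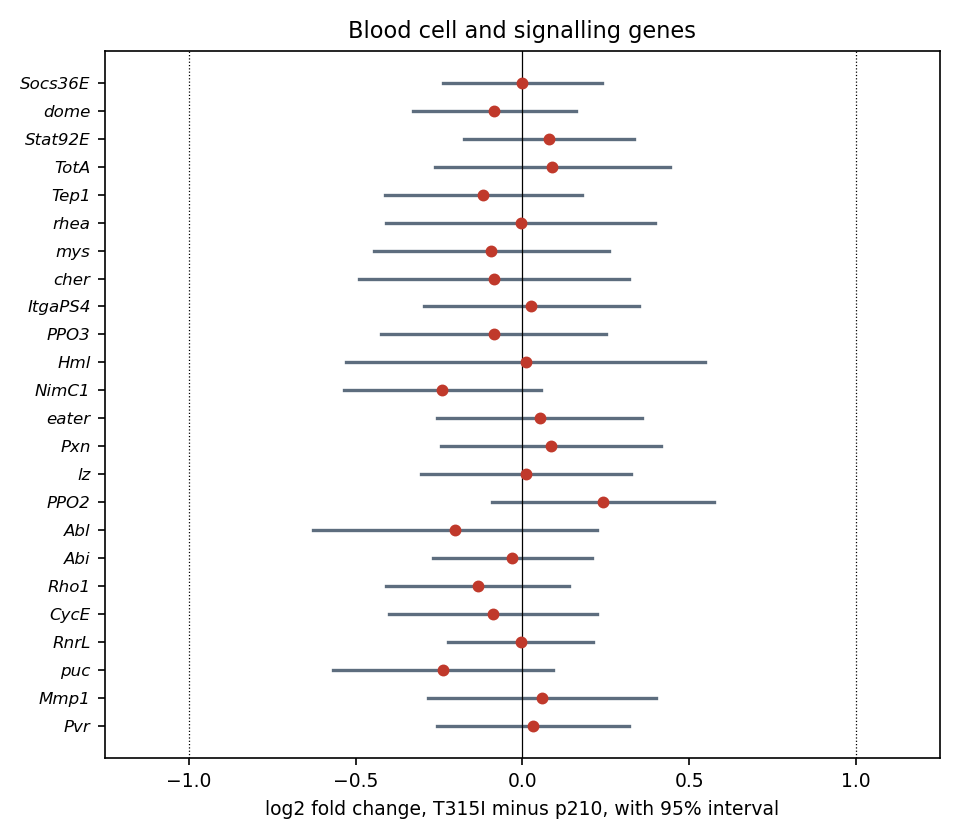
Log2 fold change, T315I minus p210, with its 95% interval for 24 genes of blood cell types and signalling, with dotted lines at a 2-fold change. Every interval shown lies inside the 2-fold lines, among them Socs36E from -0.24 to 0.24 and Abl from -0.63 to 0.22.

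Genes of testis and spermatocytes formed the list with the most members at an unadjusted p under 0.05 toward higher in T315I. Of 28 tested, 0 were called by edgeR and 10 by DESeq2, which called 3.28% of all genes. An unadjusted p under 0.05 was reached by 18, all higher, against 9.36% of all genes. In 11 all T315I libraries lay above all p210 libraries, against 9.79% of all genes, and in 0 below. The median was 0.76, and 26 of 28 estimates were above 0. S-Lap1, a leucyl aminopeptidase of sperm, stood at 219.8, 137 and 157 CPM in T315I libraries, against 87.6, 66.5 and 114.6 CPM in p210 libraries. T315I replicate 1 was the highest library, and p210 replicate 3 the highest of its group. The log2 fold change was 0.93 ± 0.24 (SE) with an edgeR adjusted p of 0.182. betaTub85D, the tubulin of the male germ line, stood at 82.9, 53.5 and 54.4 CPM in T315I, against 31.0, 25.1 and 42.7 CPM in p210 (0.95 ± 0.24, adjusted p of 0.182). aly, a regulator of the spermatocyte programme, stood at 3.51, 1.64 and 1.91 CPM in T315I, against 1.09, 0.549 and 1.498 CPM in p210, with 1.16 ± 0.44 (SE). alphaTub84D, a tubulin of many tissues that is on the list too, did not follow, with -0.05 ± 0.09 (SE). Nor did the list members mia (-0.04 ± 0.13), achi (0.03 ± 0.22), topi (0.11 ± 0.17) and can (0.19 ± 0.31) separate the groups, while vis (0.73 ± 0.23) did. The dynein gene kl-3 of the Y chromosome, which is expressed in spermatocytes, stood at 60.1, 73.8 and 73.4 CPM in T315I, against 40.0, 48.0 and 44.7 CPM in p210, with 0.64 ± 0.12 (SE) and an adjusted p of 0.124. Over the 34 list genes in the table, the summed level stood at 1239, 839 and 959 CPM in T315I, against 615, 534 and 765 CPM in p210, and at 1337, 6857 and 3748 CPM in the control.

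Fat body markers gave 16 tested genes with 0 called by edgeR and 5 by DESeq2, against 3.28% of all genes. An unadjusted p under 0.05 was found for 7, all higher, against 9.36% of all genes, and no overlap for 6, all higher, against 9.79%. The median was 0.40. It was 0.21 without T315I replicate 1 and 0.20 without p210 replicate 2, and 0.61 without T315I replicate 2 and 0.62 without p210 replicate 1. The storage protein gene Lsp1beta stood at 2279, 3926 and 3148 CPM in T315I, against 1605, 1305 and 1557 CPM in p210, with 1.07 ± 0.20 (SE) and an edgeR adjusted p of 0.124. Lsp2 stood at 105, 232 and 252 CPM in T315I, against 94.2, 51.9 and 52.99 CPM in p210, with 1.56 ± 0.41 (SE) and an adjusted p of 0.199. Here T315I replicate 1 lay just above the highest p210 library. AkhR, the receptor of the adipokinetic hormone, stood at 3.24, 12.6 and 7.94 CPM in T315I, against 3.01, 2.13 and 1.78 CPM in p210 (1.77 ± 0.47). The lipoprotein gene apolpp did not separate the groups, with 0.18 ± 0.24 (SE). Summed, the markers stood at 8934, 13026 and 9707 CPM in T315I, against 7046, 5442 and 5951 CPM in p210, while the control libraries held 100803, 65745 and 40610.0 CPM. The Lsp1 genes are similar copies and can share reads.

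Secreted clotting and melanization genes gave 16 tested genes with 0 called by edgeR and 5 by DESeq2, against 3.28% of all genes. Of the 16, 7 had an unadjusted p under 0.05, 5 higher and 2 lower, against 9.36% and 2.78% of all genes. fon, which encodes the clotting protein fondue, stood at 54.5, 265 and 144 CPM in T315I, against 35.4, 23.8 and 37.8 CPM in p210, with 2.26 ± 0.62 (SE) and an edgeR adjusted p of 0.232. Idgf5, a chitinase-like growth factor, stood at 3.72, 29.1 and 11.2 CPM in T315I, against 2.08, 1.03 and 0.927 CPM in p210, with 3.41 ± 0.83 (SE) and an adjusted p of 0.183. Idgf4, of the same family, stood at 8.61, 29.6 and 13.6 CPM in T315I, against 4.76, 3.98 and 5.35 CPM in p210, with 1.87 ± 0.45 (SE). In these genes the groups did not overlap and T315I replicate 2 was the highest library, as it was for the summed fat body markers. The part of fat body RNA in their levels was not tested. Idgf2, the more abundant family member, lay the other way, at 287, 293 and 283 CPM in T315I, against 358, 362 and 308 CPM in p210, with -0.25 ± 0.11 (SE).

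Basement membrane and integrin genes, whose products hemocytes secrete or use to adhere, gave 23 tested genes with 0 called by edgeR. DESeq2 called 1, against 3.28% of all genes, and 5 had an unadjusted p under 0.05, against 12.1%. Of the 23, 22 had an interval within a 2-fold change, against 74.2% of all genes, and the median was 0.01. trol, which encodes perlecan, stood at 136, 187 and 198 CPM in T315I, against 91.8, 93.9 and 115.1 CPM in p210, without overlap, with 0.79 ± 0.15 (SE) and an edgeR adjusted p of 0.129. The laminin gene LanA and the papilin gene Ppn, among the most abundant transcripts of the libraries, had 0.09 ± 0.21 (SE) and -0.15 ± 0.24 (SE), and their groups overlapped.

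Muscle and gut transcripts were fewer. Of 15 tested muscle markers 0 were called by edgeR and 1 by DESeq2, against 3.28% of all genes. An unadjusted p under 0.05 was found for 7, all higher, against 9.36% of all genes. The median was 0.33, and 0.21 without T315I replicate 3. Prm, which encodes paramyosin, stood at 15.8, 17.8 and 16.1 CPM in T315I, against 12.9, 11.1 and 11.7 CPM in p210, without overlap and with 0.48 ± 0.13 (SE). Zasp52, the most abundant member, stood at 367, 366 and 394 CPM in T315I, against 253, 410.0 and 546 CPM in p210, and the summed muscle level overlapped between the groups. Of 15 tested genes of digestion 0 were called by edgeR and 2 by DESeq2, against 3.28% of all genes. Of the 15, 5 had an unadjusted p under 0.05 toward lower and 1 toward higher, against 2.78% and 9.36% of all genes. Estimates were below 0 for 10 of the 15, against 57.4% of all genes. Low genes were tested only where a group had enough counts, and several Jon protease genes had more in p210. Jon25Biii, for example, had 2, 4 and 12 counts in T315I, against 19, 120 and 37 in p210. The counts and directions for this list are therefore a description only. The median of -0.98 was -0.40 without p210 replicate 2, -1.66 without p210 replicate 3 and -0.39 where 5 CPM was required in 3 libraries. Summed, the list overlapped between the groups, at 545, 661 and 595 CPM in T315I, against 616, 567 and 494 CPM in p210. LManII, the most abundant member, stood at 297, 402 and 356 CPM in T315I, against 321, 224 and 291 CPM in p210. Its log2 fold change was 0.33 ± 0.16 (SE). LManI had 0.13 ± 0.16 (SE), and Mal-A5 had 0.90 ± 0.25 (SE) without overlap. The protease gene Jon99Cii went the other way, at 0.964, 3.28 and 5.401 CPM in T315I, against 10.3, 33.1 and 7.99 CPM in p210, with -2.40 ± 0.79 (SE). Most of the tested Jon protease genes, some of which are similar copies and can share reads, were highest in p210 replicate 2. The part of RNA from other tissues in the differences between T315I and p210 was not tested.

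**Figure D4:**
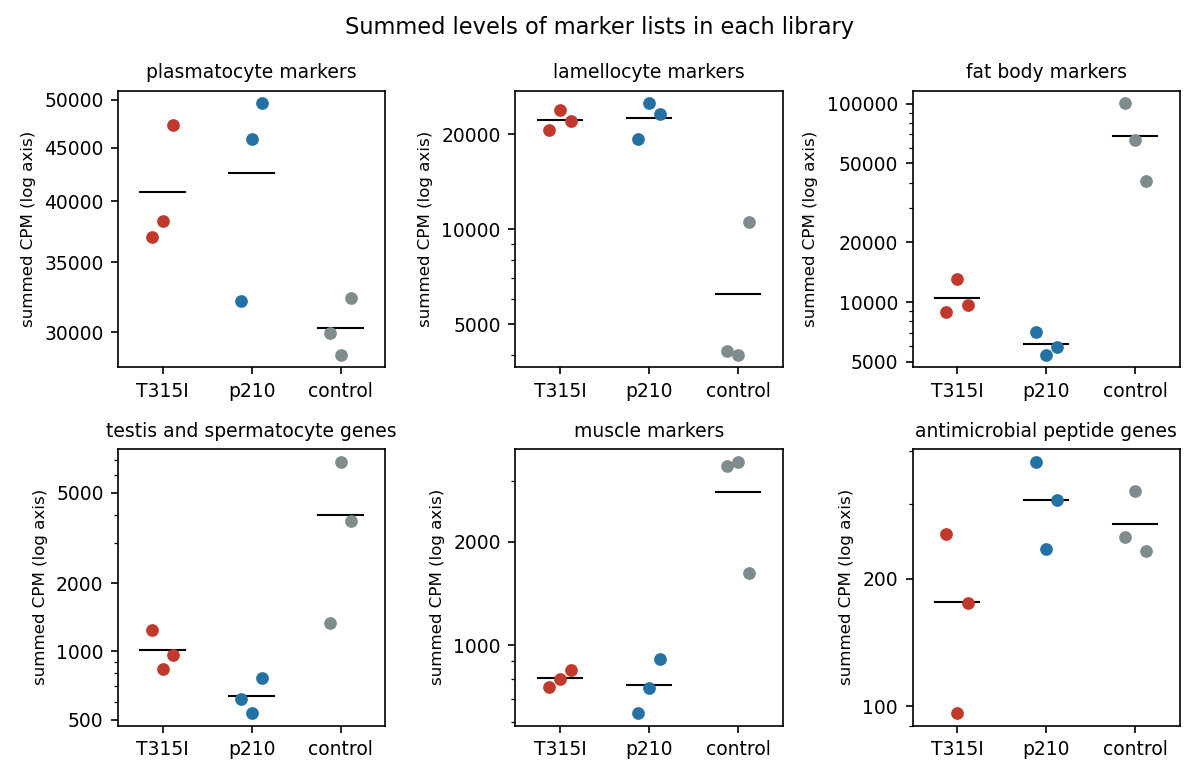
Summed CPM on a log axis of the listed genes of 6 gene lists in each T315I, p210 and control library, with black lines at the group means of 3 libraries. T315I and p210 libraries overlap for plasmatocyte, lamellocyte, muscle and antimicrobial peptide genes, and do not overlap for fat body and testis genes.

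The medians of the plasmatocyte, JAK/STAT, Abl partner and basement membrane lists changed sign on leaving out 1 library or another and stayed between -0.13 and 0.12. Across all 59 lists, 58 had a tested member and 1 list, the antimicrobial peptides, had a member called by edgeR. Of 41 tested cytochrome P450 genes, enzymes of hormone and toxin metabolism, 0 were called by edgeR and 6 by DESeq2, against 3.28% of all genes. Estimates were above 0 for 34, with a median of 0.32, or 0.15 where 5 CPM was required in 3 libraries, and 6 had an unadjusted p under 0.05 toward higher and 2 toward lower, against 9.36% and 2.78% of all genes. Cyp12a5 stood at 0.689, 0.684 and 1.14 CPM in T315I, against 3.45, 11.1 and 7.06 CPM in p210, without overlap, with -3.08 ± 0.47 (SE) and an edgeR adjusted p of 0.0798. Cyp4e3 stood at 0.62, 34.5 and 6.35 CPM in T315I, against 2.24, 0.343 and 0.998 CPM in p210, and T315I replicate 2 was far above the rest. Just above the threshold lay further genes named after their values were seen. Smvt, which by its name is a vitamin transporter, stood at 0, 0.0684 and 0.127 CPM in T315I, against 0.766, 2.27 and 2.64 CPM in p210, with an adjusted p of 0.0846. Unc-89, a giant kinase of the sarcomere, stood at 13.4, 10.3 and 8.51 CPM in T315I, against 3.34, 4.05 and 4.42 CPM in p210, with 1.45 ± 0.24 (SE) and an adjusted p of 0.0846. The groups did not overlap in either gene.

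**Figure D5:**
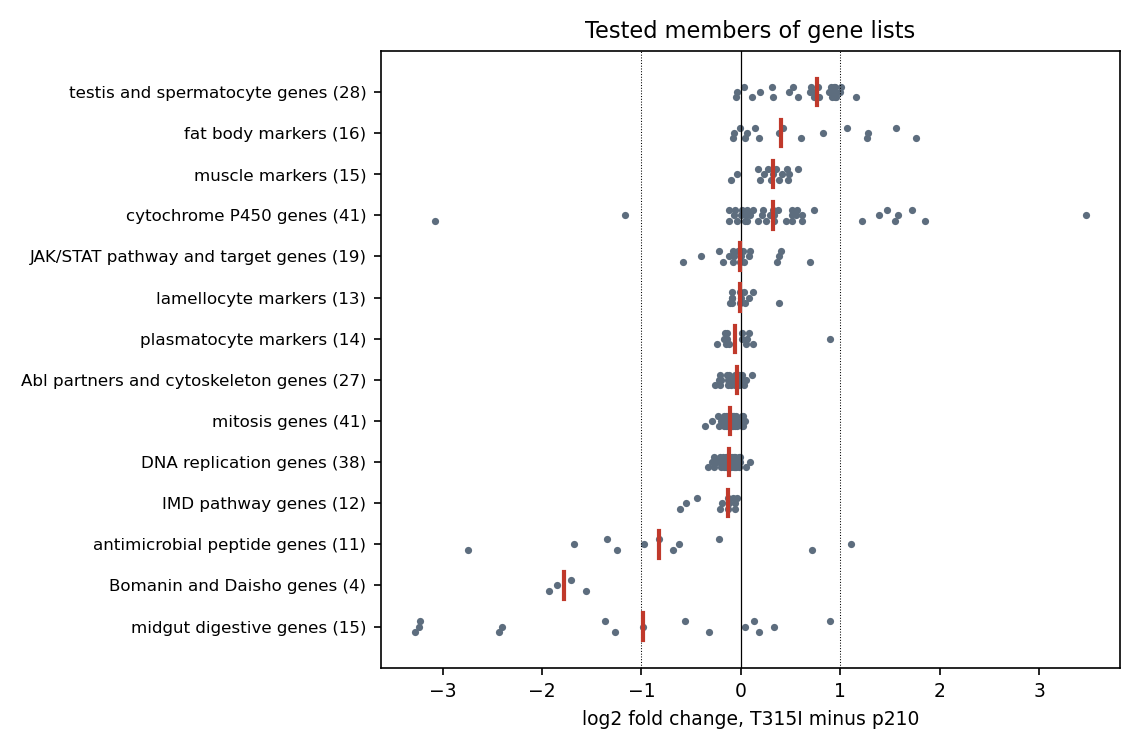
Log2 fold change, T315I minus p210, of every tested member (grey points) of 14 gene lists, with the list's median as a red bar, dotted lines at a 2-fold change and the number of tested members in brackets. Lamellocyte, Abl partner, mitosis and replication genes cluster near 0, testis genes lie to the right with a median of 0.76, and antimicrobial peptide genes to the left with a median of -0.83.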

How the data were processed

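Libraries were made from total hemocyte RNA with a stranded kit after ribosomal depletion, per the labels' protocols. The submitters' processing notes name FastQC 0.11.8, HISAT2 2.1.0, featureCounts 2.0.1 (Subread) and build dm6. Which annotation release, strand setting and rule for multiply aligned reads applied is not given in the sources used here. Raw counts, 1 column per library and not normalized, are what the authors deposited; the control columns are named wt there. Of 17874 genes, 17554 matched the Ensembl annotation (BDGP6.54, release 115, the assembly of dm6) by symbol and 281 by synonym; coordinates are from it.

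The 6 transgene libraries alone were fitted in R 4.3.3 with edgeR 4.0.16 (filterByExpr, TMM scaling, robust quasi-likelihood test, two-sided, Benjamini-Hochberg adjustment over the 9256 genes tested). Standard errors are the absolute log2 fold change over the square root of F, and 95% intervals use the test's degrees of freedom. They are approximate for low counts. CPM use TMM-scaled totals; control libraries were scaled to the same level. Floors and counting intervals cover counting error only. The script was tested on simulated data. p-values measure the spread between the labels' biological replicates, which differed by more than sampling noise.

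Members and lists were chosen with earlier results of these data known. Named genes were the 12 largest rises and 12 largest falls with adjusted p under 0.05, a 2-fold change, no overlap, a symbol that is more than an annotation number (CG or CR with digits) and 2 CPM or more on average where higher; at most 4 called members of a list, or the 2 most abundant of a list with none called; the 8 called genes with such a symbol and the smallest adjusted p; and Abl, Hml, NimC1, Socs36E, puc, CycE, Drs, Lsp2, rhea and Pvr. Alternatives were RLE, upper-quartile and plasmatocyte marker scaling, DESeq2 1.42.0, limma-voom (limma 3.58.1), no filter, 5 CPM in 3 libraries, a replicate block, all 9 libraries, a test against a 1.5-fold change, and each library left out.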

Additional observations from a re-analysis of the deposited data

How the results depend on the processing

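The number of called genes depended on the processing. All 6 called genes kept their direction under each of the 16 alternatives. For the 122 named genes over these alternatives, 1887 values stayed on their side of the threshold, 39 lost a call, 24 gained one and 0 calls changed direction. The number of called members of a list stayed within 1.5 times its value, or at 0, in 843 cases and did not in 85. Called genes numbered 6 (2 higher and 4 lower), and those called with at least a 2-fold change also 6, with 1 called list member. In the same order (called, higher, lower, with a 2-fold change, list members), the counts were 2, 1, 1, 2 and 0 with RLE scaling, 3, 1, 2, 3 and 0 with upper-quartile scaling, and 110, 65, 45, 106 and 33 with scaling to plasmatocyte markers. They were 304, 251, 53, 169 and 48 with DESeq2, and 1, 0, 1, 1 and 0 with limma-voom. Without a filter they were 68, 44, 24, 39 and 8, and with at least 5 CPM in 3 libraries 3, 1, 2, 3 and 0. With all 9 libraries in the fit they were 1, 0, 1, 1 and 0, the call being dpr4, and in the test against a 1.5-fold change 0, 0, 0, 0 and 0, where 445 genes had an unadjusted p under 0.05. Leaving out each library in turn gave 0 to 186 called, 0 to 162 higher, 0 to 62 lower, 0 to 147 with a 2-fold change and 0 to 17 list members, with the fewest called genes without T315I replicate 3, where 834 had an unadjusted p under 0.05, and the most without p210 replicate 3. For these counts the cause was not tested. With a replicate block the counts were 106, 71, 35, 59 and 21. The replicate numbers were not shown to pair the libraries, since deviations from the group means correlated by 0.051, 0.108 and 0.025 between libraries of the same number. The median standard error over all genes was 0.15, and it was larger in genes of low count, such as BomS2 with 0.72. Small differences were not called in abundant genes either. IKKbeta, for example, had -0.45 ± 0.09 (SE) and an edgeR adjusted p of 0.136.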

Other observations

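By chromosome arm, a grouping chosen after the values were seen, 4 of the 6 called genes lie on 3R (CG10407, CG42404, dpr4 and asRNA:CR45600), which holds 2267 of the tested genes, and the remaining 2 on 2R. Of the 53 genes that DESeq2 called lower in T315I, 29 lie on 3R, and of the 251 called higher 77 do. Each is the largest count of any arm, and 3R also holds the most tested genes, 2267 of 9256. All 3 T315I libraries were below all 3 p210 libraries in 18 of 86 tested genes of the fourth chromosome (20.9%), against 6.99% of all genes, and above them in 3 (3.49%). Their median log2 fold change was -0.11, from -0.11 to -0.08 over the scalings, beside -0.03 for all genes. The gene pho, whose product binds DNA for the Polycomb group, was 1 of these, at 167, 153 and 156 CPM in T315I libraries, against 196, 182 and 183 CPM in p210 libraries (-0.24 ± 0.10, edgeR adjusted p of 0.333). On the X chromosome, 6.46% of 1470 genes had all T315I libraries above p210, against 9.79% of all genes. Of 9 tested Y chromosome genes, 5 did (55.6%), with a median of 0.64. kl-5, a dynein gene of the Y, stood at 12.2, 9.85 and 7.63 CPM in T315I, against 3.94, 3.78 and 6.13 CPM in p210.

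The standard deviation of log2 CPM was wider in p210 than in T315I for 6326 of 9256 genes (68.3%), with medians of 0.13 in T315I and 0.21 in p210. zfh1, a transcription factor gene of blood lineages, stood at 689, 652 and 663 CPM in T315I, against 456, 799 and 1333 CPM in p210. pnt, the transcription factor at the end of the Ras pathway, stood at 510.3, 452 and 582 CPM in T315I, against 417, 614 and 930.5 CPM in p210. In both genes p210 replicate 1 lay below and p210 replicate 3 above all T315I libraries.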
